A study of Macaca mulatta with 52 samples.

Results

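The NLRP genes that are transcribed in oocytes and early embryos were followed through preimplantation development of the rhesus monkey (Macaca mulatta). The 8 genes NLRP2, NLRP4, NLRP5, NLRP7, NLRP9, NLRP11, NLRP13 and NLRP14 were taken by gene symbol, each matching a single identifier, from a table of 26309 gene identifiers. All 8 passed the filters on low counts in both library kits.

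NLRP proteins carry an N-terminal pyrin domain, a nucleotide-binding domain and leucine-rich repeats. Some relatives, such as NLRP1 and NLRP3, assemble inflammasomes in immune cells, whereas a group of NLRP genes expanded in mammals is transcribed mainly in the ovary, the oocyte and the early embryo. NLRP5, also called MATER, belongs with OOEP, TLE6 and KHDC3L to the subcortical maternal complex, which lies beneath the oocyte's plasma membrane and is handed down to the embryo. Inherited maternal defects in NLRP7 cause recurrent biparental hydatidiform mole in humans.

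RNA from single embryos was sequenced. Per the labels' protocols, females were stimulated with recombinant FSH and hCG, the mature oocytes were fertilised in vitro, cumulus cells were pipetted away, and embryos grew in culture medium with or without relaxin, a peptide hormone. Which embryos grew with relaxin is not stated in the labels, nor are the age and genotype of the animals, and oocytes were not analysed here. Libraries came from 2 kits, SoLo, a low-input kit that removes ribosomal sequences after a first amplification, and SPIA, which amplifies cDNA linearly from a primer that is partly RNA. The SoLo libraries came from 8-cell embryos (n = 4), morulas (n = 3) and expanded blastocysts (n = 6). The SPIA libraries came from 8-cell embryos (n = 9), morulas (n = 11), expanded blastocysts (n = 14) and delayed blastocysts (n = 2), a class that the labels name and do not define. Embryos are called by the date-like code and number of their title. Nothing states that embryos sharing a code came from different parents or days, so p-values measure only the spread between these samples.

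Libraries held 5.70 to 10.6 M counts in SoLo and 0.601 to 21.04 M counts in SPIA. Median depth in SPIA was 13.8, 8.06, 6.57 and 5.34 M counts from the 8-cell embryo to the delayed blastocyst, so depth and stage ran together there. The SoLo medians were 7.53, 8.75 and 8.43 M counts for 8-cell embryos, morulas and expanded blastocysts. Levels are CPM (counts per M counts of a library), scaled by the TMM method within each kit, and describe a share of each library's RNA; fewer cells of a kind and less RNA per cell cannot be told apart in whole embryos. Levels in CPM were not compared between genes, because the lengths used in counting are not known here. Shares and proportions of counts between genes are given without correction for length. They serve to compare libraries and stages, and do not tell which gene had more transcripts. Changes are log2 fold changes with their standard errors from edgeR's quasi-likelihood test. A gene is called, that is said to rise or fall, where the Benjamini-Hochberg adjusted p over all genes tested was under 0.05.

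Stage labels were checked against markers. Of 7 genes of 8-cell genome activation, 4 had an identifier, and their summed level had medians of 1398, 22.0 and 4.91 CPM in SoLo and 560, 43.6 and 2.44 CPM in SPIA at the 8-cell, morula and expanded blastocyst stages. By that sum the SPIA library labelled morula 022916_02 went against its label, with 701 CPM. The other 10 morulas had 2.33 to 75.5 CPM and the SPIA 8-cell embryos 198 to 867 CPM. Markers with an identifier numbered 5 of 7 for trophectoderm, 4 of 5 for primitive endoderm and 3 of 5 for epiblast. In 022916_02 the trophectoderm and primitive endoderm sums, 470 and 1118 CPM, were the highest of the SPIA morulas. No SPIA 8-cell embryo exceeded 323 and 921 CPM in them. The epiblast sum of 022916_02, 148 CPM, lay within the range of either group. Fold changes against the SPIA morulas are given with and without 022916_02. In SoLo, expanded blastocyst 112415_03 had an 8-cell activation sum of 92.7 CPM, against 2.50 to 6.01 CPM in the other 5. SoLo morula 022916_01, which had the highest NLRP2 and NLRP7 levels of its group, had a trophectoderm sum of 1401 CPM. The other SoLo morulas had 245 and 177 CPM, and the SoLo expanded blastocysts 1543 to 2828 CPM. In the SPIA library of the same morula the trophectoderm sum was 353 CPM. Among the other SPIA morulas only 022916_02 was higher, and the highest of the rest had 198 CPM. The SPIA library of 022916_01 also had the highest NLRP2 and NLRP7 levels of the SPIA morulas, 997 and 2397 CPM. In SPIA, expanded blastocyst 111715_05 was the shallowest library, with 0.601 M counts, and had the lowest sum of trophectoderm markers of its group, 114 CPM beside a median of 681 CPM. The SPIA 8-cell embryo 020816_09 had the lowest 8-cell activation, trophectoderm and epiblast sums of its group. These were 198, 4.01 and 1.00 CPM, beside medians of 560, 146 and 156 CPM. Its primitive endoderm sum, 921 CPM, was the highest of that group. Of 15 cumulus and granulosa markers, 11 had an identifier, and their summed level was 20.6 to 2262 CPM in SoLo 8-cell embryos, 11.3 to 106 CPM in SoLo morulas and 80.5 to 232 CPM in SoLo expanded blastocysts. In SPIA the same sum was 3.92 to 1617 CPM in 8-cell embryos, 1.59 to 75.9 CPM in morulas, 5.36 to 95.9 CPM in expanded blastocysts and 11.9 to 17.1 CPM in delayed blastocysts. In SPIA, all 8 NLRP genes were called between expanded blastocyst and 8-cell embryo also without 8-cell embryos 020816_06, 020816_07 and 112815_02, in which an earlier analysis found these markers. The 8-cell embryos kept were not all free of them. Embryos 011516_02 and 020816_09 had sums of 218 and 114 CPM, above every SPIA morula and blastocyst. The same exclusion leaves 1 SoLo 8-cell embryo, too few to bear on the SoLo result. The 9 blood and immune markers with an identifier, of 10 listed, summed to at most 23.5 CPM in SoLo and 72.7 CPM in SPIA. That SPIA maximum was in the library labelled morula 022916_02, and every other SPIA library had at most 33.5 CPM. PTPRC was at 0 in every group but SoLo 8-cell embryos and SPIA morulas. The 6 sperm markers with an identifier, of 7, summed to at most 36.1 CPM.

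The 8 genes fell into a pair whose level was higher after the 8-cell stage, NLRP2 and NLRP7, and 6 genes whose level was lower after it. The pair made up 20.7% ± 11.1 of the counts of the 8 genes in SoLo 8-cell embryos, 94.1% ± 4.20 in SoLo morulas and 99.0% ± 0.58 in SoLo expanded blastocysts (SD, n = 4, 3 and 6). In SPIA the pair's share was 21.2% ± 24.8, 81.5% ± 23.8 and 96.5% ± 5.29 at the same stages (SD, n = 9, 11 and 14), and 97.3% in each of the delayed blastocysts. The 8 genes together took a mean of 0.349%, 0.466% and 0.755% of all counts in SoLo, and 0.347%, 0.189%, 0.291% and 0.262% in SPIA from the 8-cell embryo to the delayed blastocyst. In SPIA 1 of the 8-cell embryos and 1 of the morulas stood far from the rest. Among 8-cell embryos the pair's share was 81.1% in 011516_02, against a median of 9.39%, and the mean without it was 13.7% ± 11.3 (SD, n = 8). Among morulas the share was 15.4% in 022916_02, against a median of 88.7%, and the mean without it was 88.1% ± 9.76 (SD, n = 10).

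**Figure D1:**
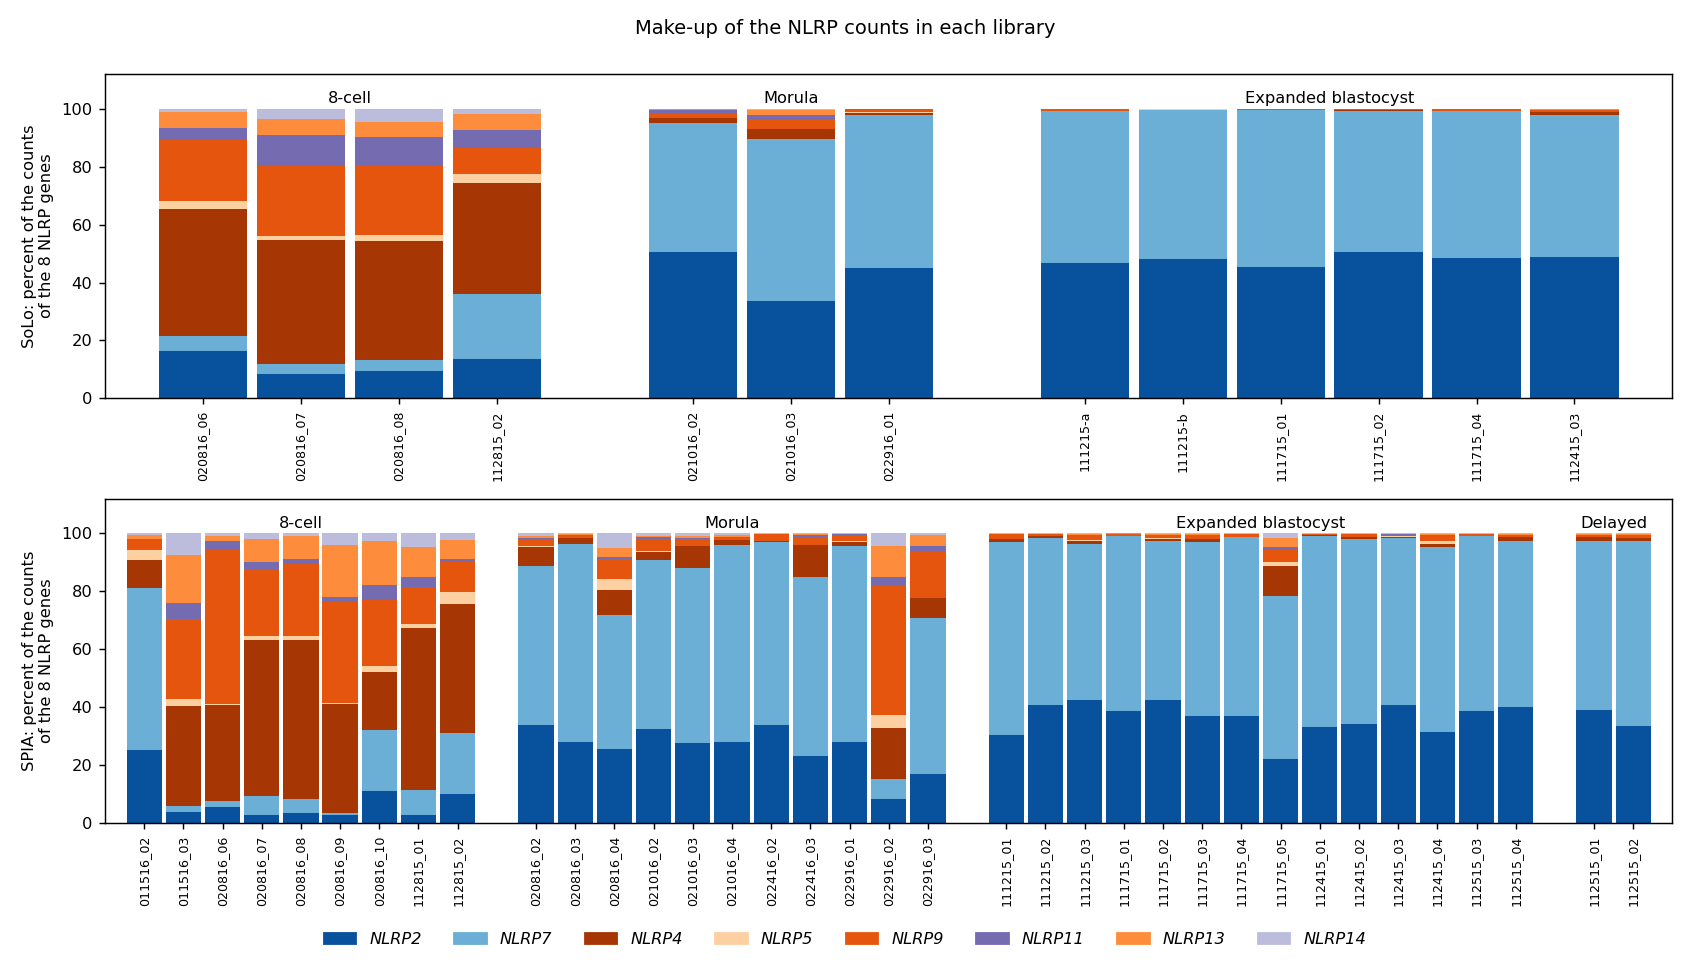
Percent of the counts of the 8 NLRP genes that fell on each gene, 1 bar per library, for SoLo (top) and SPIA (bottom), with stages in developmental order. NLRP2 and NLRP7 (blue) fill most of each morula and blastocyst bar, with the morula 022916_02 as the exception at 15.4%, and a mean of 20.7% in SoLo and 21.2% in SPIA 8-cell embryos.

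NLRP2 is a maternal-effect gene in mouse, and maternal variants in humans have been found with imprinting disturbance in the child. In SoLo it had 1717, 1210 and 3527 CPM in the 3 morulas, against 333, 312, 295 and 398 CPM in the 4 8-cell embryos. Every SoLo morula lay above every SoLo 8-cell embryo. The rise had a log2 fold change of 2.68 ± 0.27 (edgeR adjusted p = 1.02e-05). SoLo expanded blastocysts held 3499 to 4691 CPM with a median of 3943 CPM. In SPIA, NLRP2 had 60.9, 131 and 351 CPM (lowest, median and highest) across 8-cell embryos, 95.3, 476 and 997 CPM in morulas, and 521, 1047 and 1737 CPM in expanded blastocysts, and it had 963 and 759 CPM in the 2 delayed blastocysts. The SPIA groups of morulas and 8-cell embryos overlapped, and the expanded blastocysts lay wholly above the 8-cell embryos. The SPIA rise was 1.82 ± 0.33 from 8-cell embryo to morula (edgeR adjusted p = 0.000223) and 0.98 ± 0.28 from morula to expanded blastocyst (edgeR adjusted p = 0.0163).

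NLRP7 lies beside NLRP2 on the chromosome and has no mouse counterpart. In SoLo it had 1507, 2010 and 4169 CPM in the morulas, against 107, 138, 115 and 653 CPM in the 8-cell embryos. The 8-cell embryo 112815_02, with 653 CPM, stood well above the other 3 and still below each morula. The log2 fold change was 3.34 ± 0.61 (edgeR adjusted p = 0.0034), and 4.41 ± 0.33 without 112815_02. SoLo expanded blastocysts ranged narrowly, 3618 to 5019 CPM with a median of 4166 CPM. In SPIA the lowest, median and highest levels were 38.2, 159 and 597 CPM in 8-cell embryos, 77.8, 1212 and 2397 CPM in the morulas and 932, 1767 and 2700 CPM in expanded blastocysts, beside 1438 and 1444 CPM in the delayed blastocysts. The lowest morula was 022916_02. The next morula had 661 CPM, above every 8-cell embryo, so that the overlap of these SPIA groups came from that library. The SPIA rise from 8-cell embryo to morula was 2.46 ± 0.40 (edgeR adjusted p = 7.4e-05), and 2.59 ± 0.36 without 022916_02.

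**Figure D2:**
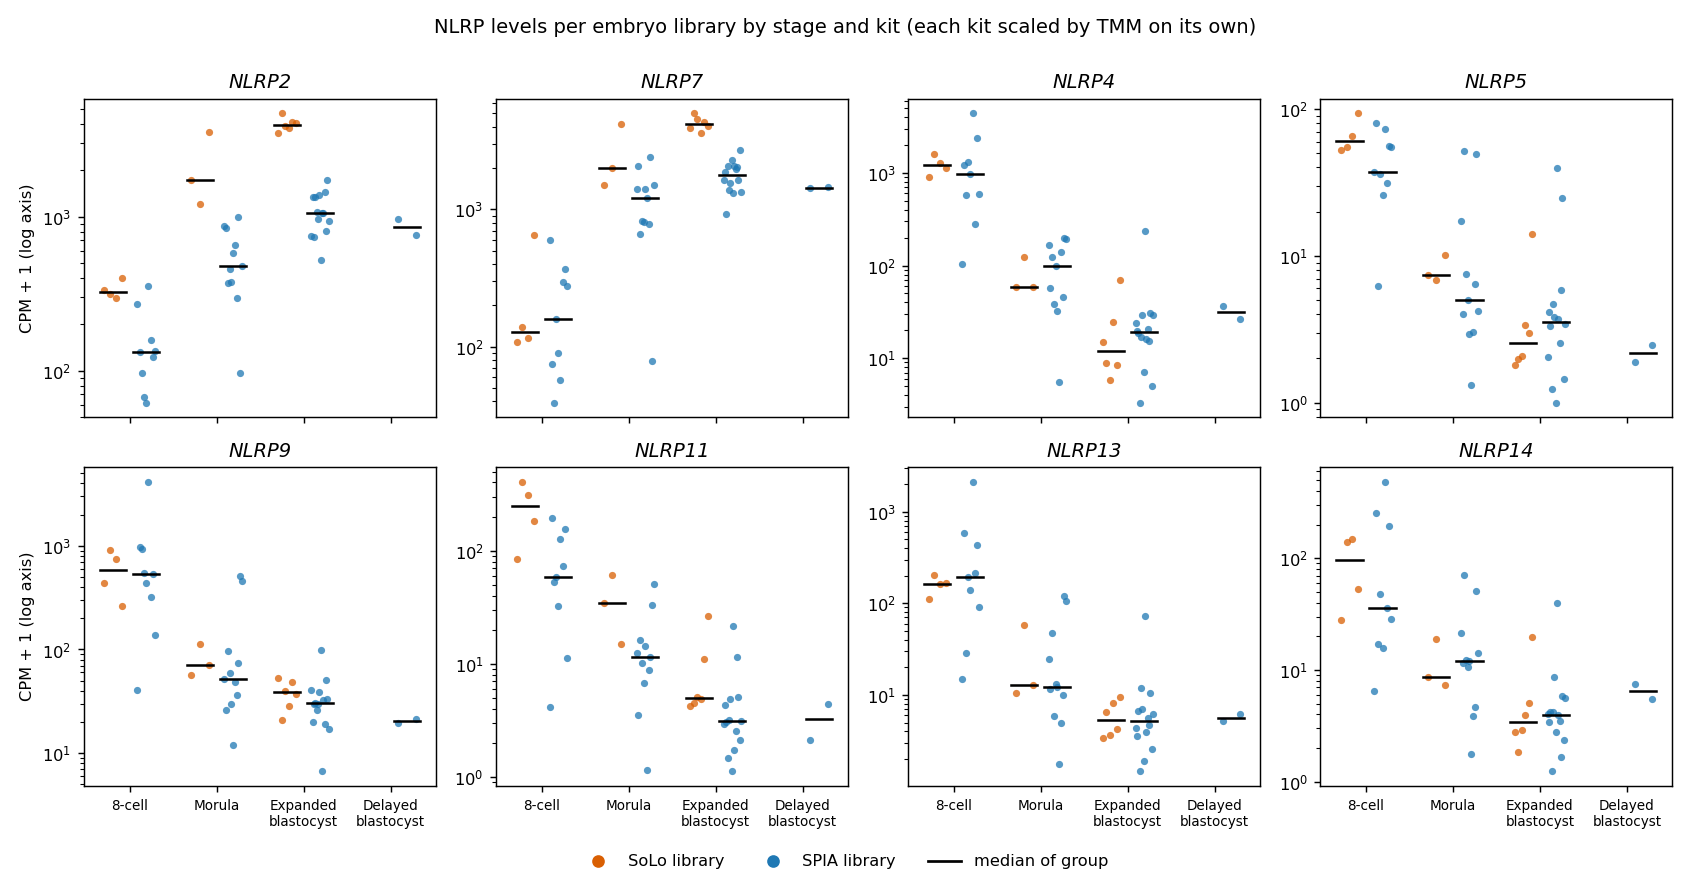
Level of each NLRP gene in each embryo library, as CPM + 1 on a log axis, by stage, with SoLo left of SPIA and a bar at each group's median. NLRP2 and NLRP7 reach their highest medians in expanded blastocysts, and the other 6 genes have their highest medians in 8-cell embryos. Each kit was scaled on its own, so a SoLo and a SPIA point are not on the same scale.

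NLRP4 took 41.5% ± 2.38 of the counts of the 8 genes, which leave out NLRP8, in SoLo 8-cell embryos (SD, n = 4). In human cells NLRP4 has been described as a brake on autophagy and on interferon signalling. SoLo morulas had NLRP4 levels of 57.3, 122 and 57.5 CPM, against 896, 1598, 1292 and 1120 CPM in SoLo 8-cell embryos. The groups were far apart, with a log2 fold change of −3.96 ± 0.91 (edgeR adjusted p = 0.0135). SoLo expanded blastocysts held 4.84 to 68.2 CPM with a median of 10.9 CPM, the highest in 112415_03. Across SPIA libraries the lowest, median and highest NLRP4 levels were 103, 965 and 4409 CPM in 8-cell embryos, 4.54, 99.0 and 198 CPM in the morulas and 2.31, 18.1 and 238 CPM in expanded blastocysts, beside 36.0 and 25.6 CPM in delayed blastocysts. The lowest 8-cell embryo, 011516_02, lay within the range of the morulas, and the highest expanded blastocyst, 111715_05, lay above every morula. The SPIA change from 8-cell embryo to morula was −3.71 ± 0.70 (edgeR adjusted p = 0.000658).

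NLRP5 is the founding maternal-effect gene of the family in mouse, where embryos of females without it stop at the first cleavages. In SoLo it had 6.42, 5.86 and 9.18 CPM in morulas, against 51.5, 54.0, 64.6 and 92.6 CPM in 8-cell embryos. The SoLo groups did not overlap, and the log2 fold change was −3.20 ± 0.85 (edgeR adjusted p = 0.0173). The lowest, median and highest NLRP5 levels in SPIA were 5.27, 36.3 and 78.9 CPM in 8-cell embryos, 0.313, 3.97 and 51.1 CPM in the morulas and 0, 2.57 and 38.9 CPM in expanded blastocysts. The expanded blastocyst at 0 was 111715_04, where 0 counts allow up to 0.338 CPM, counting error only. The delayed blastocysts had 0.888 and 1.48 CPM. In SPIA the morulas 020816_04 and 022916_02, at 51.1 and 48.3 CPM, lay amid the 8-cell embryos, and NLRP5 was the only one of the 8 genes not called between morula and 8-cell embryo, with −1.75 ± 0.83 (edgeR adjusted p = 0.129). Without the 3 morulas above 12 M counts, which include both of these, the change was −3.14 ± 0.91 (edgeR adjusted p = 0.0109), a setting chosen after the values were seen.

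NLRP9 has several copies in mouse, of which Nlrp9b serves in an inflammasome of the gut lining. NLRP9 in SoLo had 55.4, 112 and 69.7 CPM in morulas, against 432, 910, 739 and 260 CPM in 8-cell embryos, groups that did not overlap. The log2 fold change was −2.89 ± 0.44 (edgeR adjusted p = 0.000439). SoLo expanded blastocysts were all below the morulas, at 19.7 to 51.9 CPM with a median of 37.8 CPM. SPIA libraries had lowest, median and highest levels of 39.8, 533 and 4127 CPM in 8-cell embryos, 11.1, 50.6 and 505 CPM in the morulas and 5.66, 29.2 and 98.3 CPM in expanded blastocysts, beside 18.7 and 20.2 CPM in delayed blastocysts. The highest 8-cell embryo was 020816_09, and the morulas 022916_02 and 022916_03, at 505 and 454 CPM, lay among the 8-cell embryos. The SPIA change from 8-cell embryo to morula was −2.83 ± 0.64 (edgeR adjusted p = 0.00279), −3.34 ± 0.62 without 022916_02 and −1.96 ± 0.56 without 020816_09.

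NLRP11 is found in primates and not in rodents. In SoLo it had 33.4, 59.7 and 13.8 CPM in morulas, against 84.0, 403, 312 and 180 CPM in 8-cell embryos. The lowest 8-cell embryo, 020816_06, came close to the highest morula, and the log2 fold change was −2.78 ± 0.85 (edgeR adjusted p = 0.0425), a call lost in 5 of 7 fits that each left out 1 library. In SoLo expanded blastocysts it was 3.21 to 25.2 CPM with a median of 3.95 CPM. NLRP11 in SPIA had lowest, median and highest levels of 3.18, 57.5 and 195 CPM in 8-cell embryos, 0.156, 10.4 and 49.2 CPM in the morulas and 0.113, 2.09 and 20.6 CPM in expanded blastocysts, beside 1.11 and 3.37 CPM in delayed blastocysts. The SPIA groups overlapped at each step, and the change from 8-cell embryo to morula was −2.44 ± 0.72 (edgeR adjusted p = 0.0152).

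NLRP13 lies between NLRP4 and NLRP8 on the chromosome. NLRP13 levels in SoLo were 9.63, 57.2 and 11.9 CPM in morulas, against 110, 204, 161 and 166 CPM in 8-cell embryos. Morula 021016_03, at 57.2 CPM, was the nearest to the 8-cell embryos, and the log2 fold change was −2.61 ± 0.61 (edgeR adjusted p = 0.00846). In SoLo expanded blastocysts it was 2.41 to 8.45 CPM with a median of 4.38 CPM, below each SoLo morula. For NLRP13 in SPIA the lowest, median and highest levels were 14.0, 193 and 2109 CPM in 8-cell embryos, 0.782, 11.1 and 119 CPM in the morulas and 0.461, 4.17 and 70.9 CPM in expanded blastocysts, beside 4.22 and 5.12 CPM in delayed blastocysts. Embryo 020816_09 again held the top value at the 8-cell stage. The SPIA change from 8-cell embryo to morula was −3.74 ± 0.88 (edgeR adjusted p = 0.00398), and −2.74 ± 0.78 without 020816_09.

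NLRP14, which is also a maternal-effect gene in mouse, had 7.70, 17.9 and 6.30 CPM in SoLo morulas, against 26.9, 138, 148 and 52.5 CPM in SoLo 8-cell embryos. The 8-cell embryos split, with 020816_06 and 112815_02 well below the other 2, and the log2 fold change was −3.11 ± 0.98 (edgeR adjusted p = 0.0441), a call likewise lost in 5 of 7 such fits. In SoLo expanded blastocysts it was 0.844 to 18.7 CPM with a median of 2.41 CPM. In SPIA the lowest, median and highest levels were 5.43, 35.03 and 481 CPM in 8-cell embryos, 0.782, 10.9 and 69.8 CPM in the morulas and 0.231, 2.97 and 38.9 CPM in expanded blastocysts, beside 6.44 and 4.45 CPM in delayed blastocysts. The SPIA change from 8-cell embryo to morula was −2.69 ± 0.75 (edgeR adjusted p = 0.0103), and it was no longer called without 020816_09, at −2.0 ± 0.74 (edgeR adjusted p = 0.0519).

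Between morula and 8-cell embryo, all 8 genes were called in SoLo, 2 higher and 6 lower, where 16.7% of the 14196 genes tested were called by edgeR (9.78% higher and 6.92% lower; 1388 and 983 genes, against 1607 and 1972 in DESeq2). In SPIA 7 of 8 were called, 2 higher and 5 lower, where 19.4% of 15578 genes were called (9.06% higher and 10.3% lower). The median log2 fold change of the 8 genes was −2.84 in SoLo and −2.57 in SPIA, beside −0.06 and −0.14 over all genes. The SoLo groups did not overlap in any of the 8 genes, a pattern seen in 11.5% of genes upward and 12.4% downward, and the SPIA groups overlapped in all 8 (0.0835% of genes did not overlap upward, and as many downward). Without SoLo morula 021016_02 4 genes were called, and without 021016_03 or 022916_01 5 were, NLRP11 and NLRP14 being lost each time at −2.40 to −3.69. These 2 genes were also lost without 8-cell embryo 020816_07 (−2.41 and −2.81) and without 020816_08 (−2.62 and −2.75). Leaving out any SPIA library kept 6 or 7 calls. Without 022916_02 the SPIA values were 1.94 for NLRP2, −3.86 for NLRP4, −2.21 for NLRP5, −2.64 for NLRP11, −4.21 for NLRP13 and −2.96 for NLRP14, and NLRP5 again was not called (edgeR adjusted p = 0.0531). Within the only title code that holds both stages, 020816, with 5 8-cell embryos and 3 morulas in SPIA, none of the 8 was called by edgeR, where 4 of 11244 genes were called; the log2 fold changes were 2.39 for NLRP2 and 3.55 for NLRP7, and −4.31 for NLRP9, −4.15 for NLRP13, −3.54 for NLRP4, −2.64 for NLRP11, −1.64 for NLRP14 and −0.37 for NLRP5. Stage and title code can otherwise not be told apart.

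Between expanded blastocyst and morula the changes were smaller. In SPIA 4 of 8 genes were called, where 14.7% of genes were called by edgeR (4.71% higher and 9.95% lower). That split of 733 higher and 1550 lower genes was 782 and 958 in DESeq2 and turned to 1727 and 500 in voom. NLRP2 rose, and NLRP9 (−1.95 ± 0.56, edgeR adjusted p = 0.0164), NLRP11 (−2.04 ± 0.66, edgeR adjusted p = 0.0289) and NLRP14 (−1.97 ± 0.68, edgeR adjusted p = 0.0408) fell. NLRP7, at 0.57 ± 0.34, was not called (edgeR adjusted p = 0.266). NLRP4, NLRP5 and NLRP13 had −1.68 ± 0.59, −1.16 and −2.01 ± 0.77 and were not called. Only the call of NLRP2 held without the library labelled morula 022916_02 (0.87 ± 0.27, edgeR adjusted p = 0.0285); NLRP9, NLRP11 and NLRP14 then had −1.44, −1.85 and −1.71, and NLRP4, NLRP5, NLRP7 and NLRP13 had −1.53, −0.70, 0.44 and −1.55. The call of NLRP14 held in 11 of 25 fits that each left out 1 library, and those of NLRP9 and NLRP11 in 23, both being lost also without morula 022916_03 (−1.52 and −1.65). Without the 3 morulas above 12 M counts none of the 8 was called by edgeR, NLRP2 having 0.77 (edgeR adjusted p = 0.0978), and NLRP9 was at −0.35. Without the shallow expanded blastocyst 111715_05, NLRP4 (−2.54 ± 0.47, edgeR adjusted p = 0.000521) and NLRP13 (−2.83 ± 0.67, edgeR adjusted p = 0.0046) were called as well.

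In SoLo, NLRP13 was the only 1 of the 8 called between expanded blastocyst and morula, at −2.40 ± 0.51 (edgeR adjusted p = 0.0321), where 1.14% of genes were called (0.113% higher and 1.03% lower). That background itself was unsteady: the 16 higher and 146 lower genes became 771 and 706 without morula 022916_01, 1 and 4 without morula 021016_03, 282 and 383 in DESeq2 and 200 and 75 in voom. NLRP2 had 0.89 ± 0.25 (edgeR adjusted p = 0.0925). NLRP4, NLRP5, NLRP7, NLRP9, NLRP11 and NLRP14 had −1.90, −1.05, 0.73, −1.09, −2.09 and −1.06 and were not called. The levels of NLRP9 and NLRP13 did not overlap between these SoLo groups, a pattern found downward in 4.21% of genes and upward in 6.12%; in SPIA, where 0.0193% of genes had it downward and 0.0257% upward, none of the 8 did. The calls turned on single libraries here. Without expanded blastocyst 112415_03, NLRP4 (−2.77 ± 0.44), NLRP5 (−2.27 ± 0.44) and NLRP11 (−2.83 ± 0.54) were called beside NLRP13. Without morula 021016_03, NLRP13 was at −1.13 and not called (edgeR adjusted p = 0.414), and without morula 022916_01 NLRP2 was called at 1.45. No gene of the 8 was called when any of the other 5 expanded blastocysts was left out.

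Over the whole interval, from 8-cell embryo to expanded blastocyst, all 8 genes were called in both kits, 2 higher and 6 lower. By edgeR 38.4% of all genes were called in SoLo (18.6% higher and 19.8% lower) and 36.6% in SPIA (12.9% higher and 23.7% lower). The SPIA split of 2017 higher and 3691 lower genes turned to 3986 and 2036 in voom. The median log2 fold change of the 8 genes was −4.21 in SoLo and −4.57 in SPIA, beside −0.05 and −0.43 over all genes. NLRP2 rose by 3.58 ± 0.26 in SoLo and 2.81 ± 0.33 in SPIA, and NLRP7 by 4.07 ± 0.59 in SoLo and 3.04 ± 0.41 in SPIA (edgeR adjusted p from 2.63e-08 to 0.000271). NLRP4 had −5.86 ± 0.74 in SoLo (edgeR adjusted p = 0.000123) and −5.39 ± 0.68 in SPIA. NLRP13 had −5.01 ± 0.51 in SoLo and −5.75 ± 0.88 in SPIA (edgeR adjusted p = 7.89e-06); without 8-cell embryo 020816_09 the SPIA values of NLRP4 and NLRP13 were −4.89 and −4.75. NLRP5 had −4.25 ± 0.68 in SoLo and −2.91 ± 0.80 in SPIA (edgeR adjusted p = 0.0039). NLRP9, NLRP11 and NLRP14 had −3.98, −4.87 and −4.17 in SoLo and −4.78, −4.49 and −4.66 in SPIA. Leaving out any single library kept all 8 calls in both kits. The SoLo groups were apart in all 8 genes (17.9% of genes upward, 15.2% downward) and the SPIA groups in NLRP2 and NLRP7 (1.18% of genes upward, 0.944% downward).

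**Figure D3:**
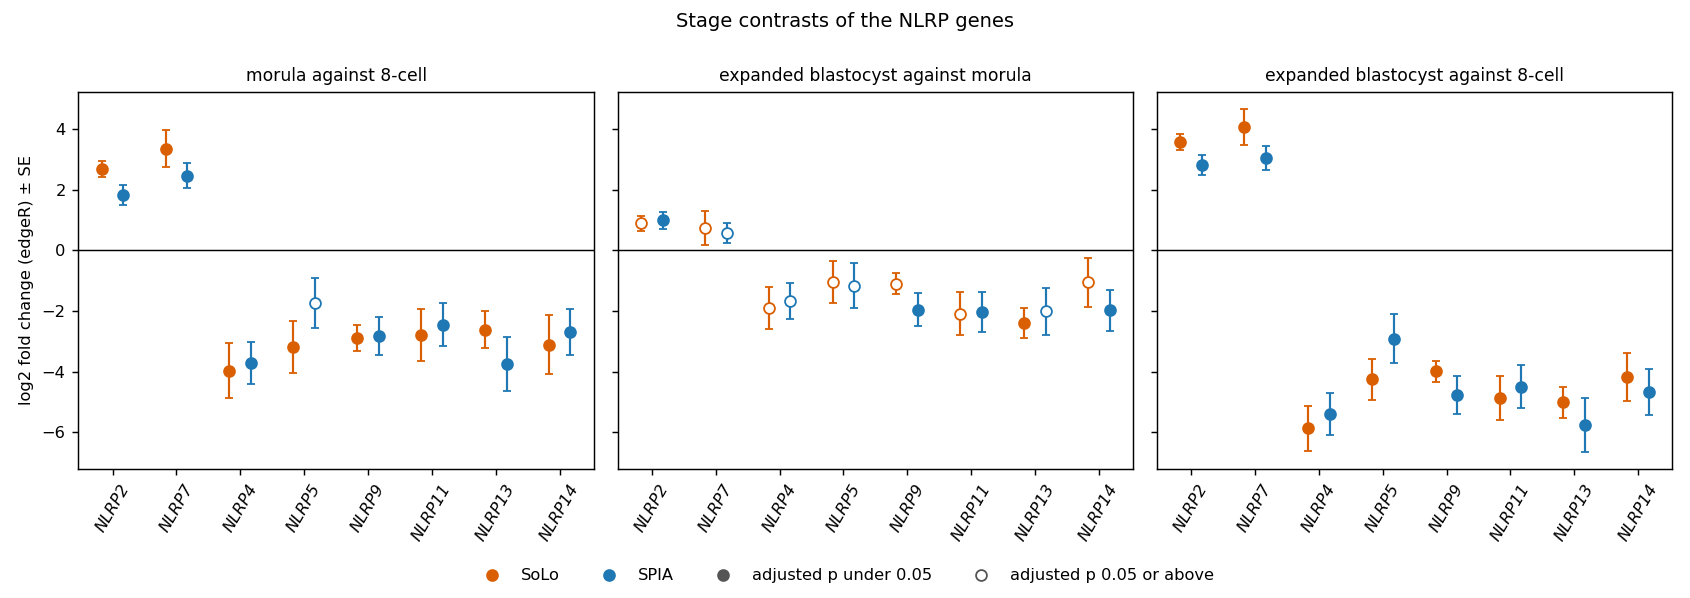
Log2 fold change ± SE of each NLRP gene in 3 stage comparisons, SoLo (orange) left of SPIA (blue), with filled points where the edgeR adjusted p was under 0.05. NLRP2 and NLRP7 lie above 0 and the other 6 below it in each comparison. Most points in the comparison of expanded blastocyst with morula are open.

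The 2 delayed blastocysts did not differ detectably from expanded blastocysts. None of the 8 genes was called by edgeR, and 0% of genes were called. The log2 fold changes were −2.27 ± 1.70 for NLRP5, −0.74 for NLRP9, −0.74 for NLRP13, −0.62 for NLRP11, −0.32 for NLRP2, −0.30 for NLRP7, −0.020 for NLRP4 and 0.20 ± 1.22 for NLRP14. At an unadjusted p under 0.05 edgeR had none of the 8 and 196 of all genes, DESeq2 called none of the 8 and 22 of all genes, and voom called none of the 8 and 1 of all genes. Against morulas, none of the 8 was called by edgeR, where 0.0193% of genes were called (0.0128% higher and 0.00642% lower). NLRP9 alone, at −2.70 ± 1.29, had an unadjusted p under 0.05 there, as did 870 of all genes, and DESeq2 called none of the 8. NLRP2 and NLRP7 had 0.66 and 0.27 there, and NLRP4, NLRP5, NLRP11, NLRP13 and NLRP14 had −1.70, −3.43, −2.66, −2.75 and −1.77; leaving out any 1 library gave no call among the 8. Against 8-cell embryos, NLRP2 (2.48 ± 0.47, edgeR adjusted p = 0.000777) and NLRP7 (2.73 ± 0.56, edgeR adjusted p = 0.00205) were higher and NLRP9 (−5.52 ± 1.57, edgeR adjusted p = 0.0398) was lower, where 3.24% of genes were called (2.87% higher and 0.366% lower). NLRP4, NLRP5, NLRP11, NLRP13 and NLRP14 had −5.41, −5.18, −5.10, −6.49 and −4.46 and were not called. DESeq2 called all 8 in that comparison, where it called 7.04% of genes (2.55% higher and 4.48% lower), so that the 447 higher and 57 lower genes of edgeR stood against 398 and 698 in DESeq2.

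From highest to lowest, the order in both kits was 8-cell embryo, morula and expanded blastocyst for NLRP4, NLRP5, NLRP9, NLRP11, NLRP13 and NLRP14, in means and in medians, and the opposite for NLRP2 and NLRP7. The test set expanded blastocyst and morula apart only for NLRP13 in SoLo and for NLRP2, NLRP9, NLRP11 and NLRP14 in SPIA. Morula and 8-cell embryo were not set apart for NLRP5 in SPIA. Without the 3 morulas above 12 M counts, NLRP5 in SPIA was at 0.23 between expanded blastocyst and morula. In SPIA the mean of the delayed blastocysts stood between those of morula and expanded blastocyst for NLRP2 and NLRP7, and neither of these neighbours was set apart from it by the test.

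Embryo to embryo, NLRP2 and NLRP7 had the lowest coefficients of variation of the 8 in expanded blastocysts. The other genes had fewer counts there, so counting error adds more to their spread, and that part was not separated. In SPIA expanded blastocysts NLRP5 had 0 to 143 counts per library, against 228 to 26869 for NLRP2. In SPIA expanded blastocysts the coefficient of variation was 30.8% for NLRP2 and 26.1% for NLRP7, against 66.1% for NLRP9 and 140% to 196% for the other 5. Without the shallow library 111715_05 it was 27.0% for NLRP2 and 25.6% for NLRP7, against 41.1% for NLRP9, 52.8% for NLRP4, 70.7% for NLRP13 and 66.0% to 164% for the other 3. In SoLo expanded blastocysts it was 10.1% for NLRP2 and 11.9% for NLRP7, against 32.7% to 142% for the other 6. The proportion of NLRP7 to NLRP2 counts was 0.698 ± 0.63 in 8-cell embryos, 1.24 ± 0.395 in morulas and 1.06 ± 0.081 in expanded blastocysts in SoLo (SD, n = 4, 3 and 6), and 1.57, 2.11 and 1.70 on average in SPIA. The SoLo 8-cell mean rested on 112815_02, with a proportion of 1.64, and was 0.384 ± 0.060 without it (SD, n = 3). Over 36 SPIA libraries the log2(CPM + 1) levels of NLRP2 and NLRP7 had a Pearson r of 0.885, and within stages r was 0.207 in 8-cell embryos (n = 9), 0.952 in morulas (n = 11) and 0.771 in expanded blastocysts (n = 14). The pair's levels ran together within morulas and expanded blastocysts, and the r among 8-cell embryos was far lower. NLRP13 and NLRP14, which lie on different chromosomes in the RefSeq gene table, had r of 0.935 within 8-cell embryos, 0.825 within morulas and 0.892 within expanded blastocysts. Within morulas without 022916_02, r was 0.877 for NLRP2 and NLRP7 and 0.773 for NLRP13 and NLRP14, and within expanded blastocysts without 111715_05 it was 0.791 and 0.721. Points of such correlations share a library, its depth and its scaling.

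**Figure D4:**
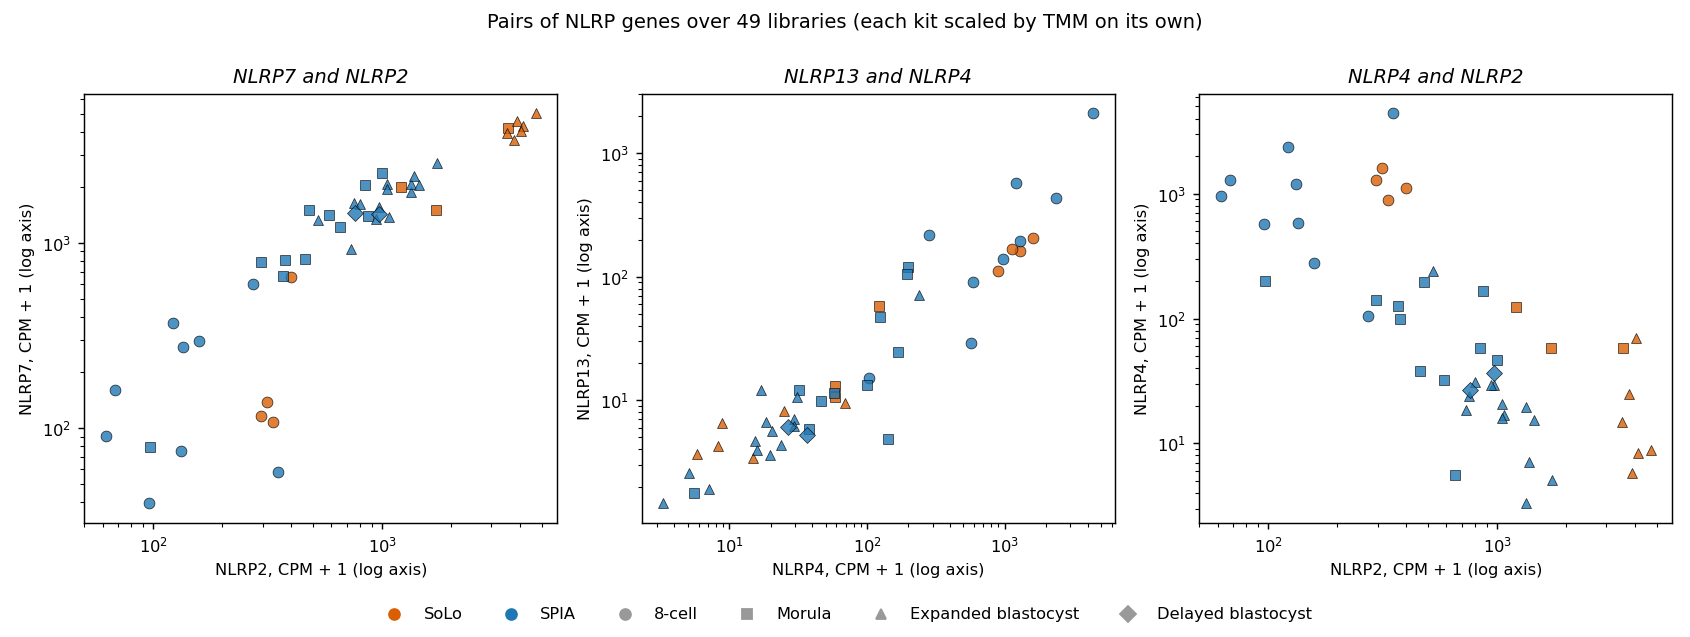
Levels of 3 pairs of NLRP genes, each point 1 of 49 libraries, as CPM + 1 on log axes, coloured by kit and shaped by stage. NLRP7 and NLRP2 climb together, NLRP13 and NLRP4 fall together, and NLRP4 and NLRP2 run in opposite directions (Pearson r −0.833 over 36 SPIA libraries).

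Genes with the most similar course were looked for among 6120 named genes with a mean of at least 10 CPM over the 36 SPIA libraries, by Pearson r of log2(CPM + 1), a description over libraries that share stages and scaling. The r over the 13 SoLo libraries is given after that in SPIA. By r in SoLo the listed genes ranked from 1 (LAMC1 for NLRP2) to 589 (PTPRK for NLRP9) of 6120. DPPA2 ranked 105 and GM2A 144 for NLRP2. For NLRP2 they were DPPA2 (0.912; 0.949), a chromatin factor of early embryos, LAMC1 (0.903; 0.989), a laminin chain of basement membranes that was also the first of 6120 in SoLo, and GM2A (0.893; 0.942). For NLRP7 they were DPPA2 (0.898; 0.961), CPNE3 (0.894 in SPIA; 0.952 in SoLo) and NLRP2 (0.885; 0.961). NLRP4 was nearest to DNMT1 (0.949; 0.972), the maintenance DNA methyltransferase, followed by NLRP13 (0.933; 0.969) and ACTL8 (0.932; 0.966). NLRP5 was nearest to RFPL1 (0.862; 0.931), NLRP13 (0.862; 0.923) and C5AR1 (0.853; 0.909), the receptor of complement fragment C5a. NLRP9 was nearest to PTPRK (0.917; 0.829), OTX2 (0.916; 0.911) and ARHGEF7 (0.909; 0.946). NLRP11 was nearest to NLRP13 (0.915; 0.944), ACTL8 (0.901; 0.957) and OTX2 (0.898; 0.956). The nearest gene of NLRP13 was another family member, NLRP8 (0.956; 0.934), followed by ACCSL (0.944; 0.957) and AFF3 (0.937; 0.913). NLRP14 was nearest to NLRP13 (0.935; 0.920), NLRP8 (0.926; 0.962) and AFF3 (0.914; 0.967).

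SoLo and SPIA were compared over 13 embryos with a library in each, with stage in the model. NLRP2 was the only 1 of the 8 called, 0.93 ± 0.16 higher in SoLo on the log2 scale (edgeR adjusted p = 4.67e-05), where 23.3% of 14873 genes were called (11.8% higher and 11.4% lower). With both kits scaled together it was higher in SoLo in each of the 11 embryos whose partner library is known, by 0.557 to 1.38. In the 8-cell embryos of these pairs NLRP2 had a median of 259 CPM in SoLo and 119 CPM in SPIA, in the morulas 1375 CPM in SoLo and 700 CPM in SPIA, and in the expanded blastocysts 3043 CPM in SoLo and 2014 CPM in SPIA. NLRP11 had 1.13 ± 0.45 (edgeR adjusted p = 0.0691), and with embryo as a replicate block it was called at 1.44 ± 0.41 (edgeR adjusted p = 0.0122). It was higher in SoLo in 8 of 11 embryos, with a median difference of 1.27. NLRP9 had −0.60 ± 0.23 (edgeR adjusted p = 0.0533). NLRP4, NLRP5, NLRP7, NLRP13 and NLRP14 had −0.37, −0.12, 0.14, −0.29 and 0.33 and were not called. The direction of the median difference turned with the scaling for NLRP4, NLRP5, NLRP9 and NLRP14. As counts per M of the library total, NLRP4 was higher in SoLo in 9 of 11 embryos, against 2 of 11 when scaled by TMM, NLRP5 in 9 against 5, NLRP9 in 6 against 2 and NLRP14 in 10 against 5. NLRP7 and NLRP13 were higher in SoLo in 10 embryos by that scaling and in 6 by TMM, with median differences above 0 in both.

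The stage changes themselves were not found to differ between kits. In the interaction of stage and kit over the 13 embryos, edgeR called none of the 8 genes and 0% of 14873 genes for either step. None of the 8 had an unadjusted p under 0.05, beside 1425 genes for morula against 8-cell embryo and 783 for expanded blastocyst against morula. The differences of the log2 fold changes, SoLo minus SPIA, ran from −1.49 ± 1.23 (NLRP14) to 1.03 ± 1.02 (NLRP13) for the first step and from −1.32 ± 0.96 (NLRP13) to 1.00 ± 1.15 (NLRP14) for the second, none of them as large as 2 standard errors. For the other genes they were −0.10 and 0.02 for NLRP2, −0.19 and 0.34 for NLRP4, −0.73 and 0.36 for NLRP5, 0.08 and 0.36 for NLRP7, 0.34 and −0.26 for NLRP9 and −0.65 and −0.49 for NLRP11, first step before second.

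**Figure D5:**
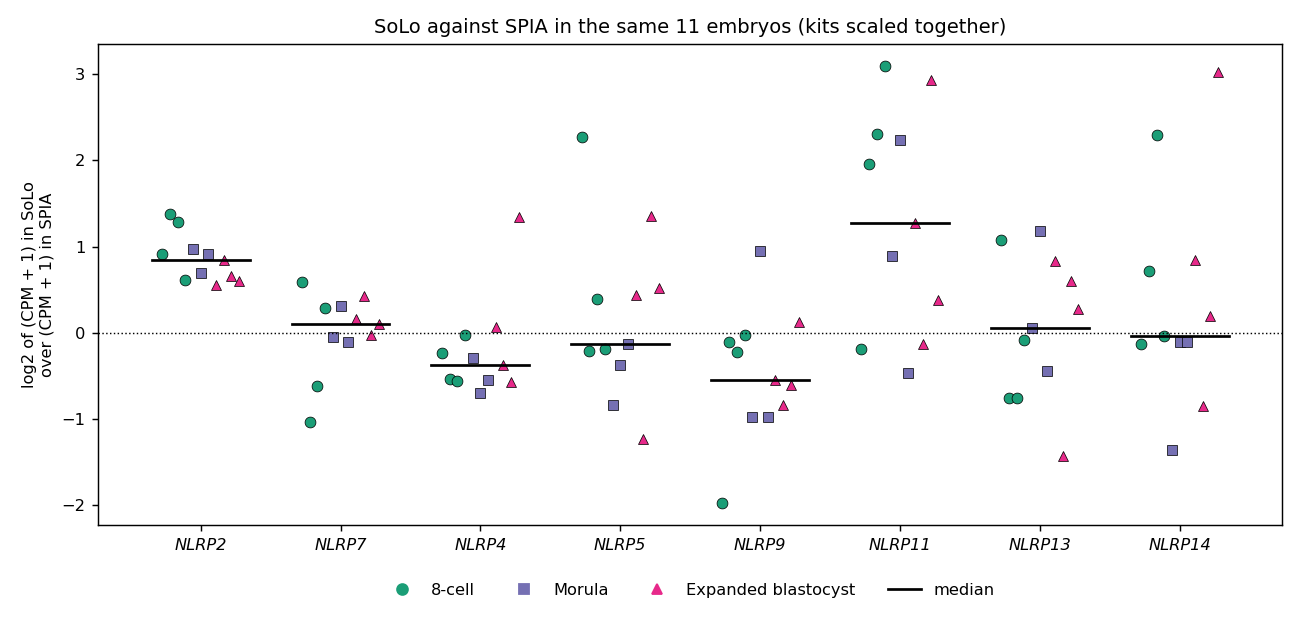
Log2 of CPM + 1 in SoLo over CPM + 1 in SPIA for each NLRP gene in the same 11 embryos, with both kits scaled together, shaped and coloured by stage, with a bar at the median. All points of NLRP2 lie above 0, between 0.557 and 1.38. The points of NLRP5, NLRP7, NLRP13 and NLRP14 straddle 0.

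PADI6, TLE6, KHDC3L, OOEP and ZBED3 were listed as partners of NLRP5 in the subcortical maternal complex. Of these 5 genes, 1 was called lower in SoLo and 2 lower in SPIA between morula and 8-cell embryo, and none higher, beside 6.92% of all genes lower in SoLo and 10.3% in SPIA. The gene for the peptidylarginine deiminase PADI6, which is needed for the cytoplasmic lattices of the oocyte, fell by 2.75 ± 0.77 in SoLo (edgeR adjusted p = 0.0215) and fell by 3.11 ± 1.01 in SPIA (edgeR adjusted p = 0.025). Between expanded blastocyst and 8-cell embryo, 2 of the 5 were called lower and 1 higher in SoLo. In SPIA 3 were called lower, namely PADI6, TLE6 and ZBED3, and none higher. Of all genes, 19.8% were called lower and 18.6% higher in SoLo, and 23.7% and 12.9% in SPIA. In that comparison PADI6 fell by 4.69 ± 0.64 in SoLo and fell by 4.43 ± 0.98 in SPIA. TLE6, a co-repressor relative, fell by 1.62 ± 0.50 in SoLo and fell by 3.17 ± 0.96 in SPIA. KHDC3L, the second gene of familial mole in humans, rose by 1.14 ± 0.34 in SoLo (edgeR adjusted p = 0.0137) and was at 0.42 ± 0.59 in SPIA (edgeR adjusted p = 0.616). OOEP was called in neither kit, at 0.62 ± 0.38 in SoLo and −0.20 ± 0.47 in SPIA, and had 76.5 ± 30.5 CPM in SoLo expanded blastocysts and 49.7 ± 21.4 CPM in SoLo 8-cell embryos (SD, n = 6 and 4).

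Of 16 listed maternal-effect and oocyte genes outside the family, 12 had an identifier. Between expanded blastocyst and 8-cell embryo 9 of 12 were called lower in SoLo and 12 of 12 in SPIA, none higher, beside 19.8% of all genes lower in SoLo and 23.7% in SPIA, with median log2 fold changes of −3.84 and −4.85. Between morula and 8-cell embryo 2 of 12 were called lower in SoLo and 5 of 12 in SPIA, beside 6.92% and 10.3% of all genes. ZP2, a protein of the egg coat, fell by 3.38 ± 1.00 in SoLo (edgeR adjusted p = 0.0373) and fell by 3.25 ± 0.69 in SPIA (edgeR adjusted p = 0.00182) at that step. BTG4, an adaptor of maternal mRNA decay, was at −1.85 ± 0.75 in SoLo and −2.07 ± 0.97 in SPIA there and was not called; it fell from morula to expanded blastocyst, with −2.84 ± 0.65 in SoLo (edgeR adjusted p = 0.0418) and −4.19 ± 0.98 in SPIA (edgeR adjusted p = 0.00474).

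Of 14 other NLRP and NLR genes, 13 had an identifier, and 6 in SoLo and 10 in SPIA passed the filter. Between expanded blastocyst and 8-cell embryo, 1 of the 6 was called lower in SoLo and none higher. In SPIA 3 of the 10 were called lower and 1 higher. Of all genes, 19.8% were called lower and 18.6% higher in SoLo, and 23.7% and 12.9% in SPIA. NLRP8, a neighbour of NLRP5 and NLRP13, had 241 ± 182, 37.3 ± 36.0 and 7.88 ± 9.91 CPM in SoLo and 431 ± 825, 44.9 ± 97.8 and 4.34 ± 5.56 CPM in SPIA at the 8-cell, morula and expanded blastocyst stages (SD), and between expanded blastocyst and 8-cell embryo it fell by 4.92 ± 0.90 in SoLo (edgeR adjusted p = 0.00146) and fell by 6.86 ± 0.98 in SPIA (edgeR adjusted p = 3.38e-06). For the inflammasome sensors NLRP3 and NLRP1 the levels at the 8-cell stage are given, without comparison to other genes. NLRP3 averaged 1.17 CPM in SoLo and 5.04 CPM in SPIA at the 8-cell stage, and NLRP1 4.21 CPM in SoLo and 19.3 CPM in SPIA, where its median was 0.368 CPM. Of 12 inflammasome genes only 7 had an identifier, and PYCARD, CASP1, IL1B and IL18 were not among them. Between expanded blastocyst and 8-cell embryo, 1 of the 4 that passed the filter in SoLo and 2 of 6 in SPIA were called higher. None was called lower, beside the shares of all genes given above. NEK7, a kinase that partners NLRP3, rose by 1.31 ± 0.44 in SoLo in that comparison (edgeR adjusted p = 0.0263). In SPIA it was at 0.44 ± 0.56 and was not among the 2 called.

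Counts of neighbouring family members may not be fully separate. In the RefSeq gene table of assembly T2T-MMU8v2.0, used here for names and order only, NLRP7 overlaps NLRP2, NLRP4 overlaps NLRP13, and NLRP8 overlaps NLRP5 at their ends. Whether the authors' counting used strand or split reads between near-identical copies is not known from the sources used here, and the split of counts within these pairs is uncertain.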

How the data were processed

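Single-embryo RNA-seq counts were analysed. The deposited table gives raw counts, as whole numbers and one row per gene identifier, which the authors had not normalised, in 52 columns; 49 matched a sample by title (2 SoLo columns of code 111215 by group only), 3 columns matched none and were not used, and 3 of 52 samples were not analysed here. HISAT2 and DESeq2 are named, without versions, per the submitters' processing notes; the sources used here do not give the counter, genome build, annotation or use of strand. Gene names came from identifier lists given with the data (15078 of 26309 identifiers).

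The tests used edgeR 4.0.16 in R 4.3.3 (filterByExpr, TMM, quasi-likelihood with robust fitting, Benjamini-Hochberg adjustment at 0.05), fitting the SPIA stages together and the SoLo stages together. Each standard error is the log2 fold change over the root of its F value. Kits were compared over 13 embryos with stage in the model, and again with embryo as a replicate block. CPM were TMM-scaled within a kit, and over both kits together where kits are compared. DESeq2 1.42.0 and limma 3.58.1 (voom, title code as a random block) served as alternatives, with other filters, depth limits of 12 M counts and each library left out in turn. Python 3.11.15, numpy 2.4.6, pandas 2.3.3 and matplotlib 3.10.9 made summaries and figures. The fits were tested on simulated data.

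All 8 members are named in every comparison, whatever their values, and for each the 3 most similar genes by Pearson r are given. The members and the gene lists (partners of the subcortical maternal complex, other NLRP and NLR genes, inflammasome genes, maternal-effect and oocyte genes, cell type and stage markers) were chosen with earlier results of these data known. A SoLo and a SPIA library whose titles share stage, code and number were treated as 1 embryo; in 11 such pairs the deviations from group means had a median correlation of 0.177, 10 lay above 0.1, the lowest was 0.0135, and 9 correlated best with their own partner. No 2 libraries of a group agreed within sampling noise (lowest chi-square per degree of freedom 16.78). Counts carry no molecular identifiers, so depth gives counting error only.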

Additional observations from a re-analysis of the deposited data

Results flagged for a closer look

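Within groups of 4 to 10 libraries, the highest and the lowest library of each gene was set against the others, in 24 tests of gene and group. The gap to the next library, over the range of the group, was held against a cut-off made for normally spread values. CPM were tested without logs, which lets high libraries stand out more, and the genes share libraries. How many groups chance alone picks out is therefore not known. A library stood apart in 7 of them, each time as the highest. Expanded blastocyst 112415_03 in SoLo accounted for 4, with NLRP4 at 68.2 CPM, NLRP5 at 13.2 CPM, NLRP11 at 25.2 CPM and NLRP14 at 18.7 CPM; its sum of 8-cell activation markers was also the highest of the group, at 92.7 CPM. The SPIA library of the same embryo had 14.3 CPM of NLRP4, 4.82 CPM of NLRP5, 10.4 CPM of NLRP11 and 0.642 CPM of NLRP14, beside group medians of 18.1, 2.57, 2.09 and 2.97 CPM, and its sum of 8-cell activation markers was 35.6 CPM, beside a median of 2.44 CPM. In SoLo, NLRP7 stood at 653 CPM in 8-cell embryo 112815_02. In SPIA, 8-cell embryo 020816_09 held 4127 CPM of NLRP9 and 2109 CPM of NLRP13. No cause was tested for any of these.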

How the results depend on the processing

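Of the fold changes of the 8 genes under settings other than leaving out 1 library, 499 kept direction and side of the threshold, 50 were no longer called, 14 became called and 13 turned sign; when each library was left out in turn, 826 held, 39 were lost, 11 were gained and 4 turned. Except where a construction shows it (fewer libraries or genes), the cause was not tested. For morula against 8-cell embryo in SPIA the 7 calls became 0 within code 020816, 0 among libraries above 12 M counts and 3 among embryos with no SoLo library, and 6 to 7 with libraries left out; in SoLo the 8 became 4 to 8. For expanded blastocyst against morula the 4 SPIA calls became 2 with DESeq2 size factors, 2 in voom, 2 with these groups fitted alone, and 0 under 12 M counts, among embryos with no SoLo library, without the morulas above 12 M counts and without these and 8-cell embryo 011516_02 (1 to 6 with libraries left out); the 1 SoLo call became 4 in DESeq2 and 0 with these groups alone (0 to 4). All 8 calls held for expanded blastocyst against 8-cell embryo when libraries were left out (8 to 8), and 7 were left among SPIA embryos with no SoLo library. For delayed blastocyst against 8-cell embryo the 3 calls became 8 in DESeq2 and 0 with these groups alone (2 to 4). In the paired fit with embryo as a replicate block the kit comparison had 2 calls in place of 1, as in DESeq2 (2), and the block changed no other call; between stages no paired analysis was possible because stages share no embryo. Signs turned as follows. NLRP5, expanded blastocyst against morula in SPIA, had 0.22 under 12 M counts, 0.22 without 8-cell embryo 011516_02 and the morulas above 12 M counts and 0.23 without those morulas alone. For delayed against expanded blastocyst, NLRP4 had 0.93 in voom and −0.29 to 0.843 with libraries left out (0.198 without 112515_02), NLRP13 0.158 in voom and −0.898 to 0.0799, and NLRP14 −0.0939 to 0.883. Between kits, NLRP5 had 0.24, NLRP7 −0.030 and NLRP13 0.0435 with the replicate block, and NLRP7 −0.0198 over 11 embryos without it. In the interaction, NLRP7 had −0.0170 with DESeq2 size factors, NLRP2 −0.19 and NLRP11 0.53 with the block, and NLRP2 −0.20 over 11 embryos. Over all genes, the median fold for expanded blastocyst against morula in SPIA was 0.41 in voom and −0.14 with DESeq2 size factors in place of −0.29, and against 8-cell embryo 0.51 and −0.31 in place of −0.43. The shallowest library held 0.601 M counts, with 9 to 579 counts of each of the 8 genes. The settings on named libraries, the morulas above 12 M counts and the 11 embryos were chosen after seeing the data.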

Other observations

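The protein-coding genes that flank the NLRP genes in the RefSeq table, a list chosen after seeing the data, were tested beside them. The table has 8 such genes, of which 7 carry a gene symbol and were listed, and 6 of these had an identifier, namely NCR1, GP6, EPN1, ZNF787, RBMXL2 and ZNF214. Between morula and 8-cell embryo, and between expanded blastocyst and 8-cell embryo, none of the 6 was called by edgeR in either kit. Of all genes, 16.7% in SoLo and 19.4% in SPIA were called in the first comparison, and 38.4% and 36.6% in the second. With only 6 genes, such counts do not show that the changes were confined to the NLRP genes. DESeq2 calls are not given for this list. EPN1, an endocytic adaptor next to NLRP9, had 0.25 ± 0.31 in SoLo and −0.65 ± 0.73 in SPIA between expanded blastocyst and 8-cell embryo, and ZNF787, next to NLRP5, had 0.64 ± 0.42 in SoLo and −1.99 ± 1.36 in SPIA. ZNF214, next to NLRP14, fell by 3.08 ± 0.97 between expanded blastocyst and morula in SPIA (edgeR adjusted p = 0.0261) and was at −0.45 ± 1.26 in SoLo.

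NLRP6 reached at most 2.0 CPM in SPIA morulas and was at 0 in all 9 SPIA 8-cell embryos, and in SoLo it stood at 0 in the 3 morulas and at 0.134 to 1.36 CPM in 8-cell embryos.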
